A study of Homo sapiens with 4 samples.

Results

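The clustered protocadherin genes are 53 of the 20046 protein-coding genes of GENCODE release 44, and were taken as every protein-coding gene on chromosome 5 whose symbol starts with *PCDHA* (alpha, 15 genes), *PCDHB* (beta, 16 genes) or *PCDHG* (gamma, 22 genes). All lie on the plus strand within 727 kb of GRCh38 (chr5:140786136-141512977). H3K27ac, acetylation of lysine 27 of histone H3 and a mark of active promoters and enhancers, was measured by ChIP-seq in SK-N-BE(2)C, an established human neuroblastoma cell line. The 2 sgCtrl samples are cells that received Cas9 with a non-targeting guide RNA, and the 2 sgSNHG1 samples are cells in which a pair of guide RNAs was aimed at *SNHG1*, a long noncoding RNA. Per the labels, puromycin-selected cells were sorted as single cells and expanded as clones, so a difference between clones and a difference between genotypes cannot be told apart. The authors combined both replicates of a group before calling peaks, which left 1 list of peaks per group, no spread between replicates and no test.

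Each alpha and gamma gene has a long first coding exon of its own, called the variable exon, with its own promoter. This exon encodes the cadherin repeats outside the cell and the membrane span, and is spliced to exons shared by the whole subcluster, whereas beta genes consist of a single coding exon. The proteins are adhesion receptors of neurons. Each neuron uses only some of the promoters, and the resulting set of proteins lets its branches recognise one another. Promoter choice is known to involve DNA methylation, CTCF, cohesin and distal enhancers, and most promoters of the family carry a conserved element around the letters CGCT.

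The sgCtrl list held 63699 peaks and the sgSNHG1 list 50119. The fold enrichment of a peak, its height at the summit over the background estimated around it, was used as the level of H3K27ac. Its median over all peaks was 3.75 in sgCtrl and 3.89 in sgSNHG1. The number of fragments over each summit was recovered from the fold enrichment and the p-value, and came out whole within 0.01 for 99.5% of the peaks of either list. A peak over the lowest background of the list needed at least 19 fragments to be listed in sgCtrl and 18 in sgSNHG1. The gene body of *SNHG1* held 1 peak in sgCtrl, with a fold enrichment of 3.44, and 0 in sgSNHG1. Within 2 kb of its start sites, the window used for all other genes, both lists held a peak, with a fold enrichment of 4.06 in sgCtrl and 3.63 in sgSNHG1. H3K27ac at the locus does not measure the RNA. Of the transcription factor genes known to be active in neuroblastoma, *MYCN*, *HAND2*, *ISL1*, *GATA3* and *TBX2* were looked up, and all 5 had a peak within 2 kb of a start site in both lists.

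The stretch before the start site is shown for the member of each subcluster with the highest fold enrichment within 2 kb in sgCtrl, and for *PCDHA9*, which had no peak within 2 kb in either list. That sgCtrl peak had its summit 145 bp after the first coding base at *PCDHA10*. At *PCDHB7* and *PCDHGA8* the summit lay 2048 and 1823 bp after it. *PCDHA9* had an sgSNHG1 peak beyond the window, 1999 bp after its first coding base, with a fold enrichment of 3.53. The sequences are the 150 bases before the RefSeq start (GRCh38.p14), 5′ to 3′, with the letters CGCT in capitals where they lie between 100 and 31 bases before the start.
*PCDHA10* (chr5:140855747-140855896, plus strand): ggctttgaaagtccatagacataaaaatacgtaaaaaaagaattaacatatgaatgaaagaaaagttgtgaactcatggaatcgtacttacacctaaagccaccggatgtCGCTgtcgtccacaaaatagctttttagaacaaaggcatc
*PCDHB7* (chr5:141172494-141172643, plus strand): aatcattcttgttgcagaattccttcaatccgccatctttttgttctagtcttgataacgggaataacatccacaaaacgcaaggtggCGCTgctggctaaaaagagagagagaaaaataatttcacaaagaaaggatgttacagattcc
*PCDHGA8* (chr5:141392483-141392632, plus strand): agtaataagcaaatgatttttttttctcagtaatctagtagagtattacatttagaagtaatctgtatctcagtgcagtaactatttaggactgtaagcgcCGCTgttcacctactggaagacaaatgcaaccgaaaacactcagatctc
*PCDHA9* (chr5:140848232-140848381, plus strand): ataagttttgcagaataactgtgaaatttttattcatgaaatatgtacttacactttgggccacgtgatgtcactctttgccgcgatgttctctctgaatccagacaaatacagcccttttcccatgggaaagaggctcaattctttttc
A promoter sequence was found for 47 of the 53 members. The letters CGCT occurred on the coding strand in that stretch in 43 of the 47 (91.5%), against 24.1% of 27305 genes with a promoter sequence. On either strand the shares were 91.5% and 39.2%. The 4 members without them were *PCDHA9*, *PCDHB5*, *PCDHB8* and *PCDHGB2*, of which *PCDHB5* and *PCDHB8* hold CGCT within the word given next, outside that stretch. The stretch was chosen after the positions of the most shared words were seen. The 10-letter word held by the most member promoters in the 250 bases before to 50 after the start, on either strand, was GGTGGCGCTG, in 12 of the 47, all of them beta genes, and in 0.341% of all genes. The words GCGCCGCTGT (9 gamma promoters) and TGATGTCGCT (8 alpha promoters) occurred in 0.165% and 0.0439% of all genes. All 3 words contain CGCT, and their median positions were 66, 71 and 58 bases before the start.

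A peak within 2 kb of a start site was listed for fewer clustered protocadherin genes in *SNHG1*-depletion cells than in control cells, but the direction turned with a window of 1 kb, which left 9 members in sgCtrl and 11 in sgSNHG1. With the 2 kb window, 38 of the 53 members (71.7%) had such a peak in sgCtrl, against 67.2% of all protein-coding genes. In sgSNHG1, 26 members (49.1%) had one, against 65.8% of all genes. Both lists held a peak for 23 members (43.4%), and for 62.4% of all genes. A peak in sgCtrl and none in sgSNHG1 was found for 15 members (28.3%), where the share of all genes was 4.78%. The opposite was found for *PCDHA4*, *PCDHB5* and *PCDHB16* (5.66%), where the share of all genes was 3.40%. The highest sgCtrl peaks of the 15 members lay far into the coding exon, with summits 1541 to 2150 bp after the first coding base. *PCDHB7* and *PCDHB12*, among the 15, had an sgSNHG1 peak that overlapped the sgCtrl one but lay just outside the window. The surplus on the sgCtrl side remained at a −log10 p of at least 10, with 25 members in sgCtrl and 13 in sgSNHG1, but not with lists of equal size. With the sgCtrl list reduced to its 50119 peaks of lowest p-value, 25 members had a peak in sgCtrl and 26 in sgSNHG1, of which 11 were in sgCtrl alone (20.8%; 2.97% of all genes) and 12 in sgSNHG1 alone (22.6%; 5.44% of all genes).

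The subclusters were alike in the direction of these counts, but not in that of the heights. Alpha had 12 members with a peak within 2 kb in sgCtrl and 9 in sgSNHG1, beta 12 and 7, and gamma 14 and 10. The 12 members without a peak within 2 kb in either list were *PCDHA3*, *PCDHA9*, *PCDHB1*, *PCDHB10*, *PCDHGA2*, *PCDHGA3*, *PCDHGA4*, *PCDHGA5*, *PCDHGA7*, *PCDHGA9*, *PCDHGC4* and *PCDHGC5*. At the 23 members with a peak in both lists, the median log2 ratio of the highest fold enrichment, sgSNHG1 over sgCtrl, was -0.05, with 10 members higher and 13 lower. By subcluster it was 0.20 in alpha (6 higher, 2 lower), -0.07 in beta (0 higher, 5 lower) and -0.07 in gamma (4 higher, 6 lower). Over the 12514 genes with a peak in both lists the median was 0.04. The values of a member could come from different peaks. At *PCDHA8* (log2 ratio 0.44) the summits lay 1537 bp after the first coding base in sgCtrl and 181 bp after it in sgSNHG1. At *PCDHGA11* (-0.43) they lay at 1874 and -1745 bp, the latter in the exon of *PCDHGB7*. 1 member passed a ratio of 1.5, *PCDHGC3*, higher in sgSNHG1, and 0 passed it in the other direction. Of all genes with a peak in both lists, 2.42% passed it upwards and 0.967% downwards. The sign of the median over all subclusters changed with the window, and the median was 0.20 at 8 members when the window was 1 kb.

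Most peaks of the cluster did not lie at the start sites. The long coding exons of the members were 2328 to 2652 bp long with a median of 2439 bp, and their peaks fell into separate groups along the exon. A peak was called a 5′ peak where its summit lay within 1000 bp of the first coding base, and a 3′ peak where its summit lay further on in the same exon. This limit was set after the positions were seen. Limits of 800 and 1200 bp could give no other counts, because no summit lay between them. The 15 summits of 5′ peaks in the 2 lists lay 57 to 650 bp after the first coding base. The 3′ summits lay 1495 to 2296 bp after it in sgCtrl, with a median of 1821 bp, and 1289 to 2149 bp after it in sgSNHG1, with a median of 1869 bp. No summit lay between 650 and 1200 bp in either list. Of the 54 peaks between the ends of the cluster in sgCtrl, 6 were 5′ peaks, 40 were 3′ peaks and 8 lay elsewhere. Of the 43 in sgSNHG1, 9 were 5′ peaks, 28 were 3′ peaks and 6 lay elsewhere.

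**Figure D1:**
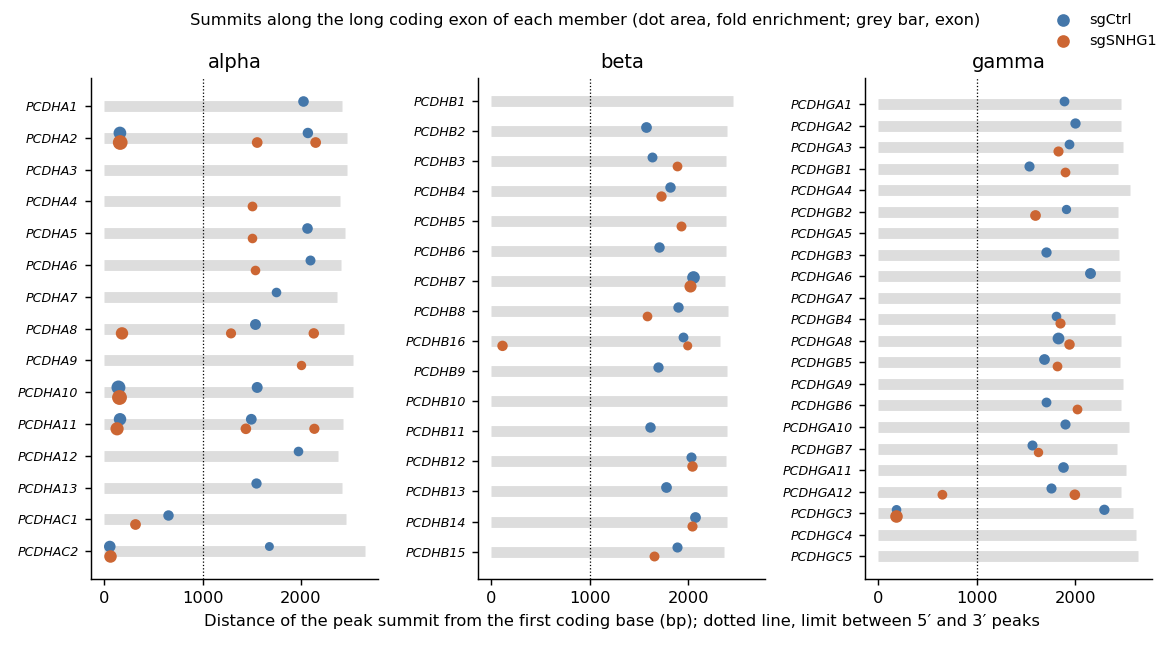
Summits of H3K27ac peaks along the long coding exon of each of the 53 members, by subcluster; the x axis is the distance from the first coding base in bp, the grey bar is the exon, blue dots are sgCtrl, orange dots are sgSNHG1, and dot area is proportional to the fold enrichment. Blue dots past the dotted line at 1000 bp are on 40 exons and orange dots on 25, while dots before the line are on 6 and 9 exons.

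The 5′ peaks were listed for few members, and were higher in *SNHG1*-depletion cells at each member that had one in both lists. In sgCtrl they were found at 6 members, *PCDHA2*, *PCDHA10*, *PCDHA11*, *PCDHAC1*, *PCDHAC2* and *PCDHGC3*. In sgSNHG1 they were found at those 6 and at *PCDHA8*, *PCDHB16* and *PCDHGA12*. The median log2 ratio at the 6 members was 0.24, with all 6 higher in sgSNHG1, and it was 0.49 when the fragments over the summit were taken relative to the median shared peak. *PCDHA10* had the 5′ peak of highest fold enrichment in either list, with a fold enrichment of 8.99 in sgCtrl (52 fragments) and 10.43 in sgSNHG1 (64 fragments). *PCDHA2* had 7.30 in sgCtrl (42 fragments) and 10.25 in sgSNHG1 (57 fragments). *PCDHA11* had 6.96 (40 fragments) and 7.95 (44 fragments). These 3 variable exons belong to the alpha genes whose promoters are chosen by single neurons.

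*PCDHAC1* and *PCDHAC2* are the C-type variable exons of the alpha subcluster, which are known to be used more uniformly between neurons. *PCDHAC2* had a fold enrichment of 5.83 in sgCtrl (72 fragments) and 7.02 in sgSNHG1 (88 fragments), and *PCDHAC1* had 4.57 (28 fragments) and 4.91 (31 fragments). The summit at *PCDHAC1* lay 644 bp after the first coding base in sgCtrl and 317 bp after it in sgSNHG1. *PCDHGC3*, a C-type variable exon of the gamma subcluster, had the largest difference, with a fold enrichment of 3.71 in sgCtrl (27 fragments) and 7.10 in sgSNHG1 (59 fragments), a log2 ratio of 0.94. Its ratio of fragments, each taken relative to the lowest background of its list, was 2.29, with a 95% interval of 1.43 to 3.76 that covers counting error only. Such ratios were taken at 6 exons with a 5′ peak and 22 with a 3′ peak in both lists, from the highest peak of each list. Of these 28 ratios, that of *PCDHGC3* was the only one whose interval did not include 1. The other C-type exons of the gamma subcluster, *PCDHGC4* and *PCDHGC5*, had neither a 5′ nor a 3′ peak in either list.

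**Figure D2:**
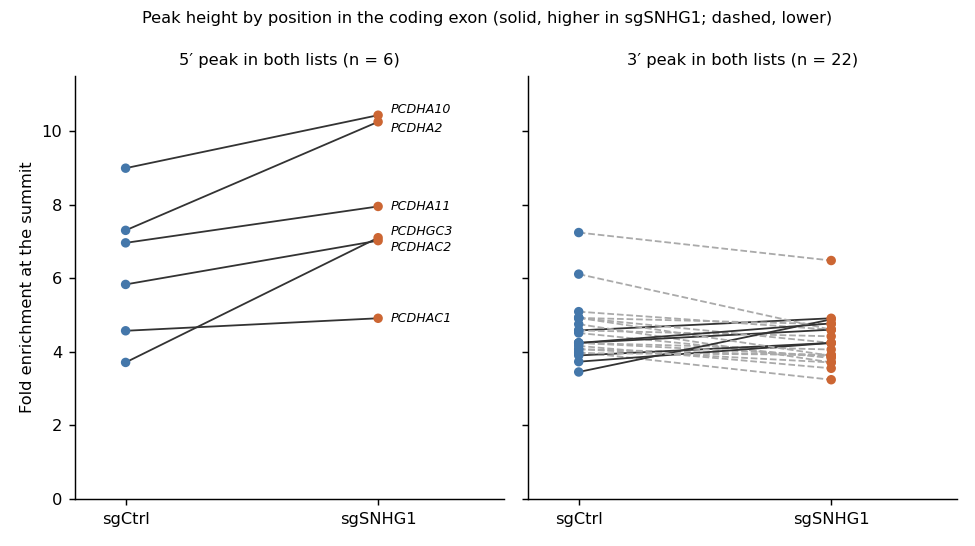
Fold enrichment at the summit (y axis, no unit) of members with a 5′ peak in both lists (left, 6 members) and with a 3′ peak in both lists (right, 22 members); each line joins the sgCtrl value (blue) to the sgSNHG1 value (orange) of 1 member, solid where higher in sgSNHG1 and dashed where lower. All 6 lines on the left go up, and 6 of the 22 on the right do.

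The 5′ peaks listed in sgSNHG1 alone were *PCDHA8*, with a fold enrichment of 6.89 (38 fragments), *PCDHB16*, with 4.56 (37 fragments), and *PCDHGA12*, with 3.89 (21 fragments). The summits of *PCDHA2*, *PCDHA8*, *PCDHA10* and *PCDHA11* lay 131 to 181 bp after the first coding base, in near-identical sequence. The 100 bases around each summit are given in the GRCh38 reference, 5′ to 3′, with the longest run common to all 4 in capitals.
*PCDHA2* (chr5:140795075-140795174, plus strand, sgCtrl summit): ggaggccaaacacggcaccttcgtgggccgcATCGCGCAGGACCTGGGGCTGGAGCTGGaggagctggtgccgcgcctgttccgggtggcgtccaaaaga
*PCDHA8* (chr5:140841453-140841552, plus strand, sgSNHG1 summit): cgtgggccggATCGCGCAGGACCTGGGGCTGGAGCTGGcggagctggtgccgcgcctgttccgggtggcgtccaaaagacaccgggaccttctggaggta
*PCDHA10* (chr5:140856144-140856243, plus strand, sgCtrl summit): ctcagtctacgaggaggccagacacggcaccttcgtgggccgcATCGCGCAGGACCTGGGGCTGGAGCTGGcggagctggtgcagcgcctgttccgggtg
*PCDHA11* (chr5:140869215-140869314, plus strand, sgCtrl summit): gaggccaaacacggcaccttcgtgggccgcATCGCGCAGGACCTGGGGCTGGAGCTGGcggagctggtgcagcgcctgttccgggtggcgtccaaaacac
The run is 28 bases long. It was found in the long coding exons of 8 alpha genes and of 0 beta and 0 gamma genes. The other 4 alpha genes that hold it, *PCDHA3*, *PCDHA6*, *PCDHA7* and *PCDHA9*, had no 5′ peak in either list. Reads within such a run cannot be placed on 1 member by that run alone, and how reads with more than 1 match were treated in these lists is not given in the sources used here.

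The 3′ peaks made up most of the peaks of the cluster, and were listed for fewer members in *SNHG1*-depletion cells. They were found at 40 members in sgCtrl (75.5%) and at 25 in sgSNHG1 (47.2%), with 22 in both, 18 in sgCtrl alone and 3 in sgSNHG1 alone (*PCDHA4*, *PCDHA9* and *PCDHB5*). By subcluster, alpha had 11 members in sgCtrl and 7 in sgSNHG1, beta 13 and 9, and gamma 16 and 9. Neither list held a 3′ peak for 10 members, among them *PCDHB1*, *PCDHB10* and the gamma genes *PCDHGA4*, *PCDHGA5*, *PCDHGA7* and *PCDHGA9*. With lists of equal size the difference in number was gone, with 25 members in either list, of which 11 were in both. With only peaks whose −log10 p was at least 10, it was 26 members in sgCtrl and 10 in sgSNHG1.

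The 3′ peaks held few fragments, although their median fold enrichment was above that of all peaks. Their fold enrichment ranged from 3.11 to 7.24 in sgCtrl, with a median of 4.41, and the median in sgSNHG1 was 4.06, against medians of 3.75 and 3.89 over all peaks of the lists and of 3.31 and 3.26 over the 3′ peaks of 148 other genes with a long first coding exon. The summits held 20 to 45 fragments in sgCtrl, where at least 19 were needed over the lowest background of the list and more over a higher one. The 18 members listed in sgCtrl alone had 21 to 39 fragments there with a median of 26.5, and the 22 listed in both had 20 to 45 with a median of 26. The heights in sgCtrl of the members that were missing from sgSNHG1 and of those that were present overlapped over most of their range. At the 22 members in both lists the median log2 ratio of fold enrichment was -0.10, with 16 lower and 6 higher in sgSNHG1. The median reversed to 0.06, with 13 higher and 8 lower, when fragments were taken relative to the median shared peak, and the ratios of fragments, 0.75 to 1.52, all had intervals that included 1. With lists of equal size the median ratio of fold enrichment was -0.21 at 11 members, with 1 higher and 10 lower. At a −log10 p of at least 10 it was -0.15 at 7 members, with 1 higher and 6 lower.

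The highest 3′ peak was that of *PCDHB7*, with a fold enrichment of 7.24 in sgCtrl (45 fragments) and 6.48 in sgSNHG1 (38 fragments). *PCDHGA8* followed with 6.11 (35 fragments) and 4.60 (25 fragments), the lowest ratio of fragments of the 22 members. *PCDHGB2* had the highest ratio, with 3.45 (20 fragments) in sgCtrl and 4.88 (29 fragments) in sgSNHG1. *PCDHA10*, with the highest 5′ peak, had a 3′ peak of 5.13 (32 fragments) in sgCtrl and none in sgSNHG1. The same was true of *PCDHAC2*, with 3.11 (39 fragments), and of *PCDHGC3*, with 4.41 (34 fragments). At these 3 members the 5′ peak was higher in sgSNHG1 and the 3′ peak was not listed there. *PCDHA2* and *PCDHA11* kept a 3′ peak in both lists, and each had a second one in sgSNHG1, as *PCDHA8* did. At *PCDHA2* both sgSNHG1 peaks overlapped the same wider sgCtrl peak of 1003 bp. The 60 bases around the sgCtrl summits of *PCDHB7* and *PCDHGA8* show the base composition under the highest 3′ peaks (GRCh38, 5′ to 3′), with each CpG in capitals.
*PCDHB7* (chr5:141174854-141174913, plus strand): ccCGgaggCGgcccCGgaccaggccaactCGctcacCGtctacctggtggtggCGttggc
*PCDHGA8* (chr5:141394607-141394666, plus strand): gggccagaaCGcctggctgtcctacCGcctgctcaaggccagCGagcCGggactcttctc

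In the alpha subcluster the members with a 3′ peak in both lists had a median log2 ratio of -0.13, with 1 member higher and 4 lower in sgSNHG1. *PCDHA2* was the one that was higher, with a fold enrichment of 4.58 in sgCtrl and 4.91 in sgSNHG1. The 4 that were lower were *PCDHA5* (4.75 and 3.71), *PCDHA6* (4.07 and 3.71), *PCDHA8* (5.09 and 4.60) and *PCDHA11* (4.92 and 4.75). At *PCDHA6* and *PCDHA8* the peaks compared did not overlap. The sgSNHG1 peak that did overlap at *PCDHA8* had 4.24. All 5 are ordinary alpha variable exons, and neither C-type exon had a 3′ peak in both lists. In sgCtrl alone, *PCDHA10* had 5.13, *PCDHA1* 4.75, *PCDHA13* 4.41, *PCDHA7* and *PCDHA12* 3.73 and *PCDHAC2* 3.11. In sgSNHG1 alone, *PCDHA4* had 3.89 and *PCDHA9* 3.53, both below the median of that list's 3′ peaks. *PCDHA3* was the alpha gene with neither a 5′ nor a 3′ peak in either list.

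In the beta subcluster, whose genes are read from a single exon, the median log2 ratio was -0.12, with 1 member higher and 7 lower. *PCDHB12* was higher in sgSNHG1, with 4.24 in sgCtrl and 4.60 in sgSNHG1. The largest differences among those that were lower were *PCDHB16* (3.99 and 3.24), *PCDHB8* (4.51 and 3.83) and *PCDHB14* (4.92 and 4.24). *PCDHB3* (4.07 and 3.89), *PCDHB4* (4.58 and 4.42) and *PCDHB15* (4.24 and 4.06) differed by less. *PCDHB16* was lower in sgSNHG1 at its 3′ peak, and had a 5′ peak there that the sgCtrl list did not hold. In sgCtrl alone, *PCDHB2* and *PCDHB13* had 4.92, *PCDHB6* and *PCDHB11* 4.58 and *PCDHB9* 4.41, and in sgSNHG1 alone *PCDHB5* had 4.06.

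In the gamma subcluster the median log2 ratio was -0.01, with 4 members higher and 5 lower. Higher in sgSNHG1, beside *PCDHGB2*, were *PCDHGA3* (3.90 and 4.24), *PCDHGB4* (3.73 and 4.24) and *PCDHGA12* (4.24 and 4.77). Lower, beside *PCDHGA8*, were *PCDHGB5* (4.92 and 3.89), *PCDHGB7* (4.16 and 3.55), *PCDHGB1* (4.24 and 3.89) and *PCDHGB6* (3.96 and 3.92). The A-type and B-type exons, which alternate along the subcluster, were found in both directions. In sgCtrl alone, *PCDHGA6* had 5.09, *PCDHGA11* 4.79, *PCDHGA2*, *PCDHGB3* and *PCDHGC3* 4.41, *PCDHGA10* 4.27 and *PCDHGA1* 3.90. By type, all 7 B-type exons had a 3′ peak in sgCtrl and 6 had one in sgSNHG1, while 8 of the 12 A-type exons had one in sgCtrl and 3 in sgSNHG1. This grouping was made after the values were seen, and the difference between the types was not tested.

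Most summits lay in the parts of the exons that were rich in GC, with exceptions such as 1 sgSNHG1 summit at 300 to 399 bp (mean GC content 46.3%), 1 at 1200 to 1299 bp (53.6%) and 1 summit of either list at 600 to 699 bp (56.6%). Averaged over the 53 members, GC content was 62.6% ± 6.15 (SD, n = 53 exons) at 100 to 199 bp after the first coding base, was 41.7% ± 5.97 at 900 to 999 bp and was 69.4% ± 6.29 at 1700 to 1799 bp. The number of CpG per 100 bp was highest at 1600 to 1699 bp, with 10.8. In 500 bp around the summit, the median GC content was 55.9% at the 6 sgCtrl 5′ peaks and 67.2% at the 40 sgCtrl 3′ peaks, against 62.0% over the whole list. In sgSNHG1 the values were 55.8%, 67.1% and 62.4%. The part of the exon beyond 1000 bp had a median GC content of 60.3% and 7.01 CpG per 100 bp in the 40 members with a 3′ peak in sgCtrl, and 55.5% and 4.22 in the 13 without. The part that GC content of the fragments played in these values was not tested. Words of 31 bases that occur once in the reference made up a median of 40.0% of the words within the sgCtrl 3′ peaks and 79.3% within the 5′ peaks. The 5′ peaks were of unequal kind, with 51.2% at *PCDHA2*, 57.1% at *PCDHA10* and 58.7% at *PCDHA11*, and 100% at the C-type exons *PCDHAC1*, *PCDHAC2* and *PCDHGC3*. Over the whole part of the exon beyond 1000 bp, the median share of words that occur once also differed. It was 71.8% in the 40 members with a 3′ peak in sgCtrl and 92.3% in the 13 without. In sgSNHG1 it was 70.6% in the 25 with one and 82.2% in the 28 without. The count of a single 5′ peak of an ordinary alpha exon, or of a single 3′ peak, is therefore uncertain where reads fit several members.

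A 3′ peak was listed for a larger share of the clustered protocadherin genes than of other genes with a long first coding exon. The comparison used 148 other protein-coding genes whose longest coding exon had at least 2000 bp and began within 1000 bp of a start site, with a median length of 2623 bp. A 3′ peak was listed for 25.0% of these in sgCtrl and for 18.9% in sgSNHG1, where members had 75.5% and 47.2%. A 5′ peak was listed for 40.5% and 35.1% of them, where members had 11.3% and 17.0%. A 3′ peak without a 5′ peak was found in 35 members (66.0%) in sgCtrl and 20 (37.7%) in sgSNHG1, and in 15 (10.1%) and 13 (8.78%) of the other genes. The exons of the other genes had a lower number of CpG beyond 1000 bp, with a median of 2.03 per 100 bp against 6.76 over all members. Their share of words that occur once in the reference was not measured.

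The change between the lists was also set against the other genes. A 3′ peak in sgCtrl alone was found in 8.78% of them and one in sgSNHG1 alone in 2.70%, against 18 and 3 of the 53 members. Of the genes with a 3′ peak in sgCtrl, 18 of 40 members and 13 of 37 other genes had none in sgSNHG1. A 5′ peak in sgCtrl alone was found in 8.11% of the other genes and one in sgSNHG1 alone in 2.70%, against 0 and 3 of the 53 members. The number of genes with a 3′ peak in sgSNHG1 was 0.625 times that in sgCtrl for members and 0.757 times for the other genes. Summits 1 to 2.5 kb downstream of any start site numbered 2194 in sgCtrl and 1686 in sgSNHG1, a ratio of 0.768, and those within 1 kb of a start site 16222 and 16036, a ratio of 0.989. At the 48 other genes with a 5′ peak in both lists the median log2 ratio was -0.04 and 41.7% were higher in sgSNHG1, where all 6 members were. Over the 12514 genes of any kind with a peak within 2 kb in both lists, the median was 0.04 and 57.8% were higher in sgSNHG1. With lists of equal size, the other genes had a 3′ peak in 19.6% in sgCtrl and 18.9% in sgSNHG1, and members in 47.2% in either list.

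**Figure D3:**
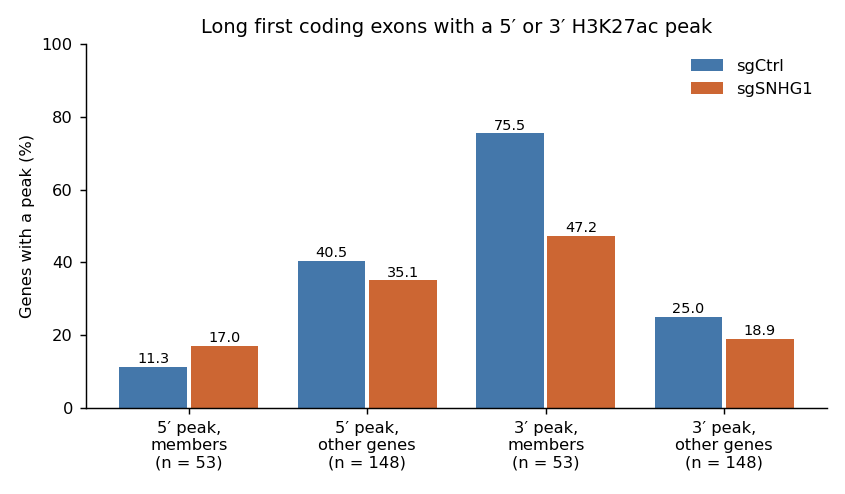
Share of genes (y axis, percent) with a 5′ or a 3′ H3K27ac peak in their long first coding exon, for the 53 members and 148 other genes, in sgCtrl (blue) and sgSNHG1 (orange). The 3′ share of members, 75.5% and 47.2%, is above that of the other genes in both lists, and the 5′ share, 11.3% and 17.0%, is below it.

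Across the whole cluster, the 54 sgCtrl peaks covered 27501 bp and the 43 sgSNHG1 peaks 17357 bp. The ratio of the peak numbers was 0.796 (95% interval 0.533 to 1.19 from the peak numbers, counting error only), close to the 0.787 of the whole lists and the 0.831 of peaks within 5 Mb on either side. With lists of equal size it turned to 1.23, with 35 peaks in sgCtrl and 43 in sgSNHG1. An sgSNHG1 peak overlapped 31 of the sgCtrl peaks (57.4%, 95% Wilson interval 44.2 to 69.7), and an sgCtrl peak overlapped 32 of the sgSNHG1 peaks (74.4%, 59.8 to 85.1). In the full lists the numbers were equal in alpha, with 17 peaks in either list, and lower in sgSNHG1 in beta, with 14 and 10, and in gamma, with 21 and 14.

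**Figure D4:**
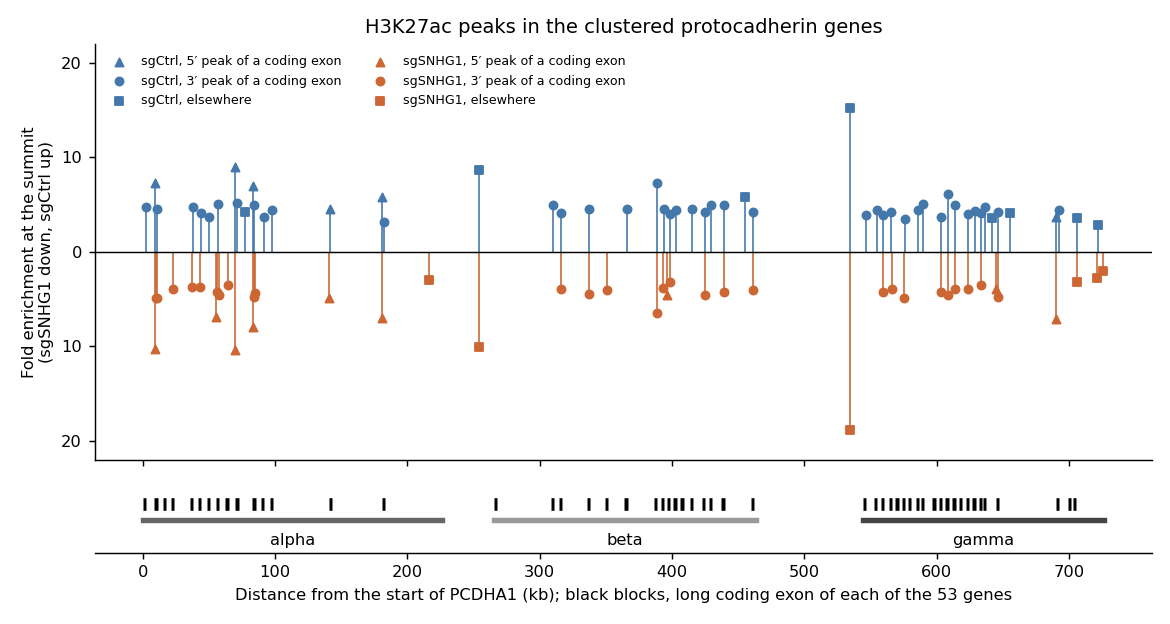
H3K27ac peaks between the ends of the cluster by distance from the start of *PCDHA1* (x axis, kb), with the fold enrichment at the summit upwards for sgCtrl (blue, 54 peaks) and downwards for sgSNHG1 (orange, 43 peaks); triangles are 5′ peaks, circles 3′ peaks and squares peaks elsewhere, and black blocks below are the long coding exons. The highest peak in both lists lies between beta and gamma, at 15.23 and 18.83, and the next outside the exons lies between alpha and beta, at 8.65 and 10.09.

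The highest peak of the region belonged to a gene that is no protocadherin. It lay at the promoter of *TAF7*, which encodes a subunit of the general transcription factor TFIID and sits between beta and gamma on the minus strand. It had the same bounds in both lists (chr5:141320388-141320773), with a fold enrichment of 15.23 in sgCtrl (117 fragments) and 18.83 in sgSNHG1 (179 fragments). *SLC25A2*, a mitochondrial ornithine carrier and the other gene between beta and gamma, had no peak within 2 kb in either list. Between alpha and beta, a peak lay 10739 bp before the start of *PCDHB1* in sgCtrl (chr5:141040144-141040728), with a fold enrichment of 8.65 (50 fragments). In sgSNHG1 it was wider (chr5:141039911-141041058) and had 10.09 (62 fragments). An enhancer of the alpha genes, HS5-1, is known to lie downstream of the alpha constant exons, and whether this peak is that element was not tested.

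The peaks in sgCtrl alone that lay outside the coding exons of members were over pseudogene copies of such exons. RefSeq lists 6 pseudogenes of the cluster on this assembly, and 4 of them had a peak in sgCtrl and 0 in sgSNHG1. *PCDHB19P* had the highest, with a fold enrichment of 5.77 (33 fragments) at chr5:141241400-141241782. *PCDHA14* had 4.24 (24 fragments), *PCDHGB9P* 4.07 (23 fragments) and *PCDHGB8P* 3.63 (24 fragments). The −log10 p was 17.1 at *PCDHB19P*. It was 9.99, 9.27 and 8.38 at the others in this order, below the stricter limit of 10. The summits of the 4 peaks lay 1427 to 2015 bp after the start of the pseudogene. *PCDHB17P* and *PCDHB18P* had no peak. In the last part of the gamma subcluster, beyond *PCDHGC5*, a peak at chr5:141507748-141508235 had a fold enrichment of 2.81 in both lists. The local background there was 27.45 fragments in sgCtrl and 26.0 in sgSNHG1, against a lowest value of 4.89 and 4.66 in the lists. An sgCtrl peak that touched the end of the *PCDHGC5* coding exon, with its summit beyond the exon, had 3.60 (81 fragments). The sgSNHG1 peak that overlapped it lay wholly beyond the exon and had 3.15 (59 fragments). Outside the long coding exons, peaks in sgSNHG1 alone lay at chr5:141002498-141002929 (2.94) and chr5:141512186-141512438 (2.05).

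The neighbours, the related genes outside the cluster and the genes known to act on it were described in the same way. Of 20 protein-coding genes within 250 kb of either end, 19 had a peak within 2 kb in both lists, with a median log2 ratio of 0.05, 11 higher and 8 lower in sgSNHG1. *ZMAT2*, on the side of alpha, had a fold enrichment of 5.57 in sgCtrl and 8.14 in sgSNHG1, and *DIAPH1*, a formin on the side of gamma, had 12.33 and 12.82. Of 11 protocadherins outside the cluster, 8 had no peak in either list, *PCDH9* had 7.64 and 7.60, *PCDH1* had 3.28 and 3.96, and *PCDH12* had 3.52 in sgCtrl and none in sgSNHG1. All 16 genes listed for their known part in the control of the cluster had a peak in both lists, with a median log2 ratio of -0.01, 8 higher and 8 lower, and 0 past a ratio of 1.5. Among them, *CTCF*, which encodes the DNA-binding protein that anchors the promoter loops, had 10.00 in sgCtrl and 8.41 in sgSNHG1. The cohesin subunit *RAD21* had 15.14 and 13.97, and *SMCHD1*, which encodes a repressor of the cluster, had 8.13 and 9.00.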

How the data were processed

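H3K27ac ChIP-seq of 4 samples was analysed, 2 sgCtrl and 2 sgSNHG1, grouped by their labels. Per the submitters' processing notes and the paper's methods, the authors trimmed reads with cutadapt, used BWA to align them to GRCh38, joined the reads of both replicates per group and ran MACS2 at a p-value of 1e-06. Every peak in the deposited lists has a fold enrichment (a ratio of its summit to the background around it), a −log10 p-value and a summit position. Depth per sample is unknown, and the planned test on values per replicate was not run.

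Coordinates are 1-based. A gene had a peak where one touched the 2 kb around a start site of a protein-coding transcript (GENCODE release 44), with the highest fold enrichment taken. The background is the same call over all 20046 protein-coding genes. The fragments over a summit were recovered by taking the fold enrichment to hold a pseudocount of 1 and the p-value to be Poisson. Fragment ratios were divided by the ratio of the lowest backgrounds of the lists (0.953). Their intervals are exact binomial and those of shares Wilson (95%), and both cover counting error only. Base composition came from the GRCh38 reference and promoters from RefSeq. Python 3.11.15 with numpy 2.4.6, pandas 2.3.3 and scipy 1.17.1 was used, and the functions were tested on simulated data and against bedtools 2.31.1.

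Alternatives were windows of 1 and 3 kb, the 5′ end of the gene only, the summit within the window, lists of equal size, peaks with a −log10 p of 10 or more, an overlap of 50% of both peaks, and fragments relative to the median shared peak. The division into 5′ and 3′ peaks, the set of other long first coding exons and their alternatives were added after seeing the data. All members are accounted for, and other genes were named from fixed lists of neighbours, protocadherins outside the cluster and known regulators. The 4 pseudogenes, the neuroblastoma genes and the example peaks were chosen after their values were seen, and 1 neuroblastoma gene that was looked up is not reported here. The members and lists were chosen with earlier results of these data known.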

Additional observations from a re-analysis of the deposited data

How the results depend on the processing

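No paired analysis was possible because each list pools both replicates, and for the same reason no replicate could be left out. Of 89 values under other settings, 61 stayed close to the reported value, 21 moved and 7 changed sign. A 1 kb window left 9 members with a peak in sgCtrl, 11 in sgSNHG1 and 8 in both, with a median log2 ratio of 0.20. That median was 0.04 with the 5′ end of the gene only, and 0.18 at 15 members with the summit within the window. At a −log10 p of at least 10, members with a peak were 25 in sgCtrl, 13 in sgSNHG1 and 9 in both, the median was 0.19 and 0 passed a ratio of 1.5, the sgSNHG1 list had 24 peaks in the cluster, 41.7% of sgCtrl peaks were shared, and 3′ peaks were at 26 and 10 members. With lists of equal size, 25 members had a peak in sgCtrl and 14 in both, 0 passed a ratio of 1.5, the cluster held 35 sgCtrl peaks (ratio 1.23), 48.8% of sgSNHG1 peaks were shared and 25 members had a 3′ peak in sgCtrl. With an overlap of 50% of both peaks, 38.9% of sgCtrl and 48.8% of sgSNHG1 peaks were shared. With fragments relative to the median shared peak, the median log2 ratio was 0.15, 3 members passed a ratio of 1.5, and the median at 3′ peaks was 0.06. The number of 5′ peaks and their direction were the same in every setting tried, except that sgCtrl had 5 and sgSNHG1 8 at a −log10 p of at least 10, and sgCtrl had 5 with lists of equal size. The median log2 ratio of fragments over all shared peaks was -0.19. The median 3′ peak held 26 fragments in sgCtrl and 24 in sgSNHG1, and a member without a listed peak may still carry the mark below this depth.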
